A study of Homo sapiens with 6 samples.

Results

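The collagen crosslinking and hydroxylation enzymes are 10 genes in 3 families: the lysyl oxidases LOX, LOXL1, LOXL2, LOXL3 and LOXL4, the lysyl hydroxylases PLOD1, PLOD2 and PLOD3, and the catalytic alpha subunits P4HA1 and P4HA2 of prolyl 4-hydroxylase. They were taken by symbol from a table of 58735 genes, in which all 10 were found. The cells were ES2, an established human ovarian cancer line labelled as high-grade serous carcinoma, with no other genetic change given. Control cells (genotype WT in the labels) received 1 control siRNA, and the knockdown cells (siUAP1) received siRNAs against UAP1, the enzyme that makes UDP-N-acetylglucosamine. The labels list 2 UAP1 siRNAs and do not say whether they were pooled. RNA of both groups was taken 48 hours after transfection, with the medium replaced after 6 hours, and each group had 3 libraries, numbered 1 to 3. The labels do not say whether the 3 came from separate cultures, so each p-value reflects only how far these libraries spread, possibly for technical reasons. The 6 libraries held 21267240 to 25972582 counts.

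Collagen is modified in the endoplasmic reticulum before its chains wind into a triple helix. Prolyl 4-hydroxylase makes hydroxyproline, which stabilises the helix, and the lysyl hydroxylases make hydroxylysine, to which sugars can be attached. Both kinds of enzyme need iron, oxygen, 2-oxoglutarate and ascorbate. Outside the cell the lysyl oxidases, which carry copper, oxidise lysine and hydroxylysine side chains to aldehydes, and these react further to crosslinks that make collagen and elastin fibres stiff and insoluble. In tumours these enzymes are studied for their part in matrix stiffness and invasion, and several of the genes are known targets of hypoxia-inducible factor (HIF).

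ES2 cells expressed 9 of the 10 genes, and 4 of these rose modestly with UAP1 knocked down when libraries were compared within replicate numbers: LOXL2, LOXL3, PLOD1 and P4HA1. In the same comparison 9.07% of all genes tested rose and 7.14% fell. The rises of the 4 enzyme genes ran from 1.12-fold for P4HA1 to 1.4-fold for LOXL3. No enzyme gene fell, and within replicate numbers the 95% intervals of LOX, PLOD2 and PLOD3 lay between -0.12 and 0.13 on the log2 scale. On the group alone these intervals were wider, at -0.29 to 0.29, -0.24 to 0.29 and -0.24 to 0.21. In the planned main test, which is without the pairing, no enzyme gene passed. That test called 0.0317% of all genes higher and 0.0761% lower. In bulk RNA, fewer cells with a transcript and less of it per cell cannot be told apart.

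UAP1 itself was at 99.8, 102.5 and 128.6 FPKM (the deposited level per gene length and library size) in the control libraries and at 6.27, 6.72 and 7.26 FPKM in the siUAP1 libraries, so the knockdown labels held in all 6. Libraries with the same replicate number deviated together from their group means, and the numbers were therefore taken to pair the libraries. Rose and fell below refer to the edgeR fit with the replicate number as a block, at an adjusted p under 0.05 over 15768 genes, and the fit on the group alone is named where it is used. Of the markers of ovarian carcinoma, PAX8 and WT1 were under 1 FPKM in every library and MUC16 and SOX17 had 0 counts, whereas KRT7 ran from 65.4 to 148.1 FPKM. The keratin genes KRT7, KRT8 and KRT18 rose (log2 fold changes 0.58, 0.78 and 0.50; KRT8 and KRT18 overlap, so their counts are uncertain), and the 11 markers summed to 202 to 225 FPKM in control and 278 to 350 FPKM in siUAP1 libraries. Markers of fibroblasts and mural cells (6 genes) summed to 5.93 to 10.6 FPKM in control and 5.26 to 12.2 FPKM in siUAP1 libraries, with decorin (DCN) at 0 counts. Among them, the receptor gene PDGFRB rose (log2 fold change 0.95, SE 0.13, edgeR adjusted p = 7.58e-06), and the part of these keratins and of PDGFRB in the results below was not tested. Markers of leukocytes, red cells and endothelium (8 genes) summed to 21.5 to 27.6 and 21.7 to 28.1 FPKM, nearly all of it the cadherin gene CDH5, with CD3E and HBA1 at 0 counts.

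Per gene length, the highest enzyme transcripts in control cells were LOX, LOXL2 and PLOD2. LOX, the founding lysyl oxidase, was at 71.6, 85.5 and 80.0 FPKM in control libraries 1 to 3, and LOXL2, which is known for crosslinking basement membrane collagen IV, at 81.8, 75.1 and 62.6 FPKM. PLOD2, the hydroxylase of the collagen telopeptides, was at 64.4, 57.8 and 64.0 FPKM. The ranges of LOX and LOXL2 overlapped, as did those of LOXL2 and PLOD2, so their order was not separated by the spread. PLOD1, which hydroxylates lysines of the triple helix, followed at 46.3 ± 7.93 FPKM (SD, n = 3), P4HA1, the major prolyl hydroxylase subunit in most cells, at 38.7 ± 6.37, LOXL1, known for its role in elastic fibres, at 34.1 ± 4.01, and PLOD3, which also carries glycosyltransferase activity, at 30.1 ± 1.42 FPKM. The ranges of neighbours among these 4 overlapped, and all 4 lay below PLOD2. A step separated them from P4HA2, the second prolyl hydroxylase subunit, at 4.94 ± 1.78 FPKM and LOXL3 at 3.94 ± 1.76 FPKM, whose ranges overlapped.

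LOXL4 was the gene without a usable signal. It had 0, 0 and 3 counts in the control and 0, 1 and 0 counts in the siUAP1 libraries. A floor of 3 counts corresponds to 0.115 to 0.141 CPM (counts relative to the TMM-scaled library size) in these libraries, so any level up to about there was not detectable, and no fold change is given. LOXL4 was not tested, and counts of genes below are out of the 9 tested.

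**Figure D1:**
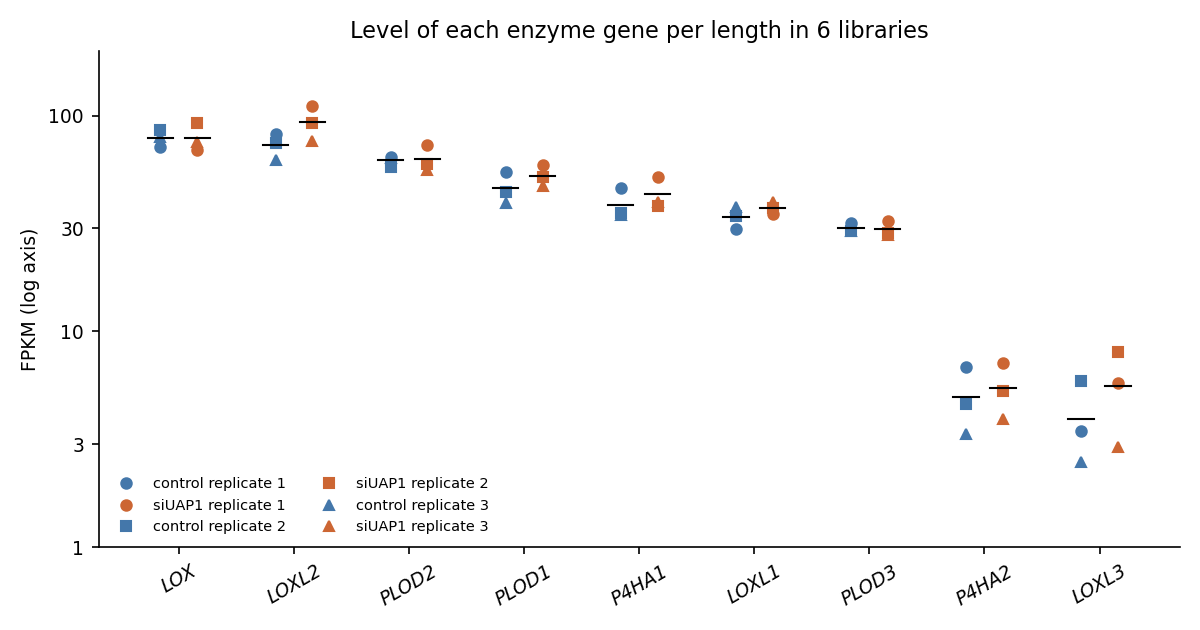
FPKM of the 9 expressed enzyme genes (log axis) in each of the 6 libraries, with control in blue, siUAP1 in orange, 1 symbol shape per replicate number and a black line at each group mean of 3. LOX, LOXL2 and PLOD2 lie highest in control, P4HA2 and LOXL3 lie lowest, and the colours overlap for every gene. LOXL4, with 4 counts in all libraries together, is not drawn.

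In siUAP1 libraries the order changed at the top and near the bottom, in both cases between genes whose ranges overlapped. LOXL2 came first with 93.1 ± 17.4 FPKM (SD, n = 3) and LOX second with 79.1 ± 12.2 FPKM, and LOXL3 at 5.57 ± 2.55 FPKM passed P4HA2 at 5.45 ± 1.61 FPKM. Within the lysyl oxidase family, LOX supplied 41.5% ± 2.84 of the summed FPKM in control and 36.8% ± 4.77 in siUAP1 libraries, and LOXL2 38.5% ± 4.9 and 43.1% ± 6.07 (SD, n = 3). LOXL1 supplied 18.0% and 17.5%, and LOXL3 2.05% and 2.53%. P4HA1 made up 88.9% of the alpha subunit FPKM in both groups (SD 2.12 and 1.8).

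**Figure D2:**
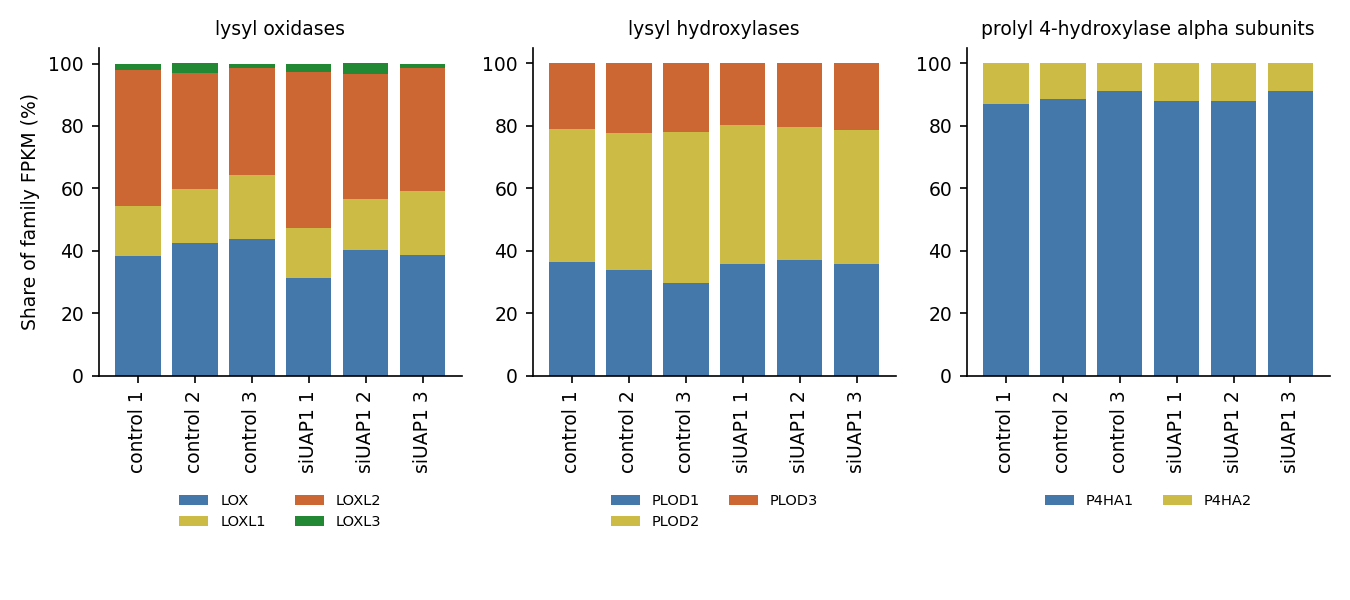
Share of each gene in the summed FPKM of its family (percent, stacked to 100) in each library, 1 panel per family. LOXL2 took 34.2% to 43.8% of the lysyl oxidase sum in control and 39.2% to 50.1% in siUAP1 libraries, while the P4HA1 share stayed between 87.0% and 91.2%.

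The fit on the group alone, which ignores the pairs, called 0 of 9 enzyme genes higher and 0 lower (edgeR, adjusted p under 0.05). Across all genes it called 0.0317% higher and 0.0761% lower. At an unadjusted p under 0.05 it counted 0 of 9, against 7.13% of all genes, and DESeq2 and limma-voom without pairs also called 0. Of all genes, DESeq2 called 95 higher and 70 lower, and limma-voom 3 and 9. With the pairs, 4 of 9 rose and 0 fell, where 9.07% of all genes tested rose and 7.14% fell. The median log2 fold change of the 9 was 0.16, against -0.00295 over all genes. In 6 of 9 genes the siUAP1 library was higher in all 3 pairs, compared with 23.4% of all genes, and in 0 of 9 it was lower in all 3, compared with 23.6%. The CPM of the groups did not overlap in 0 of 9, where siUAP1 lay wholly higher in 6.74% and wholly lower in 5.71% of all genes. The groups of the 4 genes that rose thus overlapped, as did those of most genes tested, and their rises were seen within pairs.

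**Figure D3:**
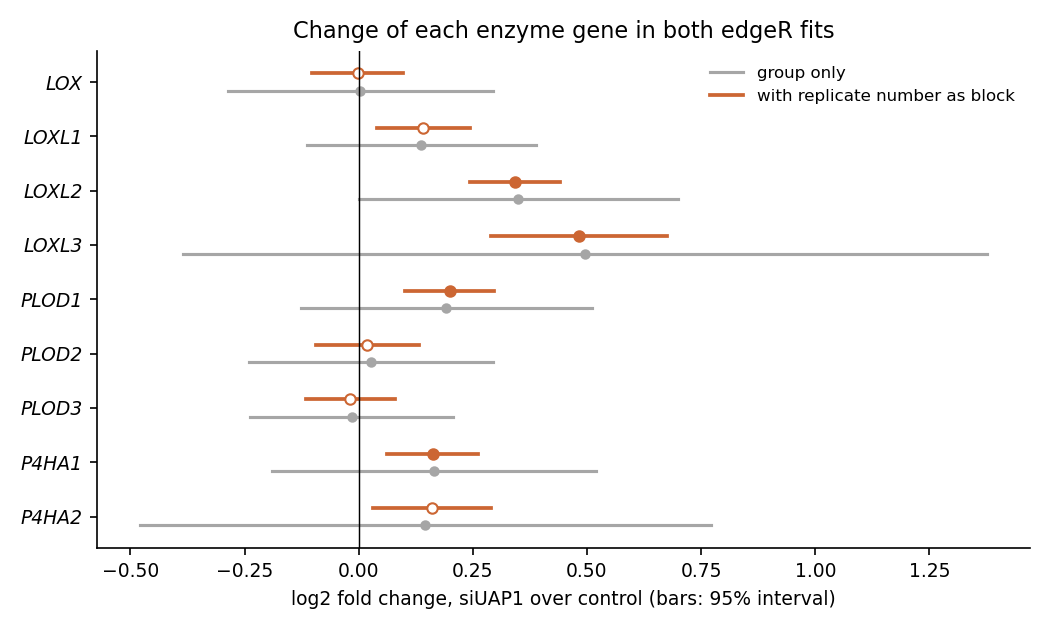
log2 fold change of siUAP1 over control for the 9 tested genes, with 95% intervals, from edgeR on the group alone (grey) and with the replicate number as a block (orange, filled where adjusted p is under 0.05). The estimates of both fits nearly coincide, and with the block only, the intervals of 6 genes lie above 0: the 4 that passed the test and LOXL1 and P4HA2, which did not after adjustment.

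LOXL2 had the clearest rise of the lysyl oxidases. It was at 470.2, 434.1 and 359.0 CPM in control libraries 1 to 3 and at 639.9, 531.6 and 438.5 CPM in siUAP1 libraries 1 to 3. Every siUAP1 library was above the control of its own number, although siUAP1 library 3 lay below control library 1. The log2 fold change was 0.34 (SE 0.0477, 95% interval 0.24 to 0.44, edgeR adjusted p = 9.94e-06), and 0.35 (SE 0.154, adjusted p = 0.7) on the group alone. LOXL2 (ENSG00000134013, GRCh38 chromosome 8, 23297189 to 23425328, minus strand) shares 2.1% of its exonic bases with ENTPD4 on the same strand, a neighbour that fell (-0.47, SE 0.057, edgeR adjusted p = 1.58e-06), and 3.12% with the low AC090197.1 (2.47 CPM), so its counts are uncertain there.

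LOXL3, a lysyl oxidase with roles in the developing palate and spine, was low but rose most in proportion. Its values were 15.2, 26.1 and 10.9 CPM in the control group and 25.4, 35.2 and 12.9 CPM in the siUAP1 group. The pairs differed more from each other than the groups did, with replicate number 3 lowest and number 2 highest in both groups. The log2 fold change was 0.48 (SE 0.0935, 95% interval 0.29 to 0.68, edgeR adjusted p = 0.000575), with log2 differences of 0.74, 0.43 and 0.24 in pairs 1 to 3. LOXL3 (ENSG00000115318, chromosome 2, 74532414 to 74555690, minus strand) shares 14.3% of its exonic bases with HTRA2 and 4.95% with DOK1, both on the opposite strand (33.1 and 7.75 CPM). Since the use of strand in counting is not given, its counts are uncertain. HTRA2 was at 33.7 CPM in the control group and 32.6 CPM in the siUAP1 group (log2 fold change -0.05, adjusted p = 0.703).

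LOX and LOXL1 were not called. LOX shares 2.49% of its exonic bases with SRFBP1, whose mean was 31.9 CPM in the control and 28.2 CPM in the siUAP1 group. LOX (ENSG00000113083, chromosome 5, 122063195 to 122078360, minus strand) was at 399.8, 480.5 and 446.1 CPM in the control group and 389.1, 519.2 and 421.5 CPM in the siUAP1 group. It was lower in pairs 1 and 3 and higher in pair 2, and the log2 change was -0.00267 (SE 0.0483, adjusted p = 0.982), with a 95% interval from -0.10 to 0.10. LOXL1 (ENSG00000129038, chromosome 15, 73925989 to 73952137, plus strand) was at 109.5, 126.8 and 138.6 CPM in the control group and 129.4, 137.1 and 146.0 CPM in the siUAP1 group. It was higher in all 3 pairs and just missed the threshold (log2 fold change 0.14, SE 0.0493, edgeR adjusted p = 0.0517). With the block it passed narrowly under limma-voom (adjusted p = 0.0499) and with library totals without TMM (0.04935). Its antisense gene LOXL1-AS1, which shares 9.21% of the exonic bases of LOXL1, fell from 80.9 to 55.6 CPM (-0.54, SE 0.0549, adjusted p = 7.39e-08). Whether counting used strand is not given, so the counts of LOXL1 and LOXL1-AS1 are uncertain.

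**Figure D4:**
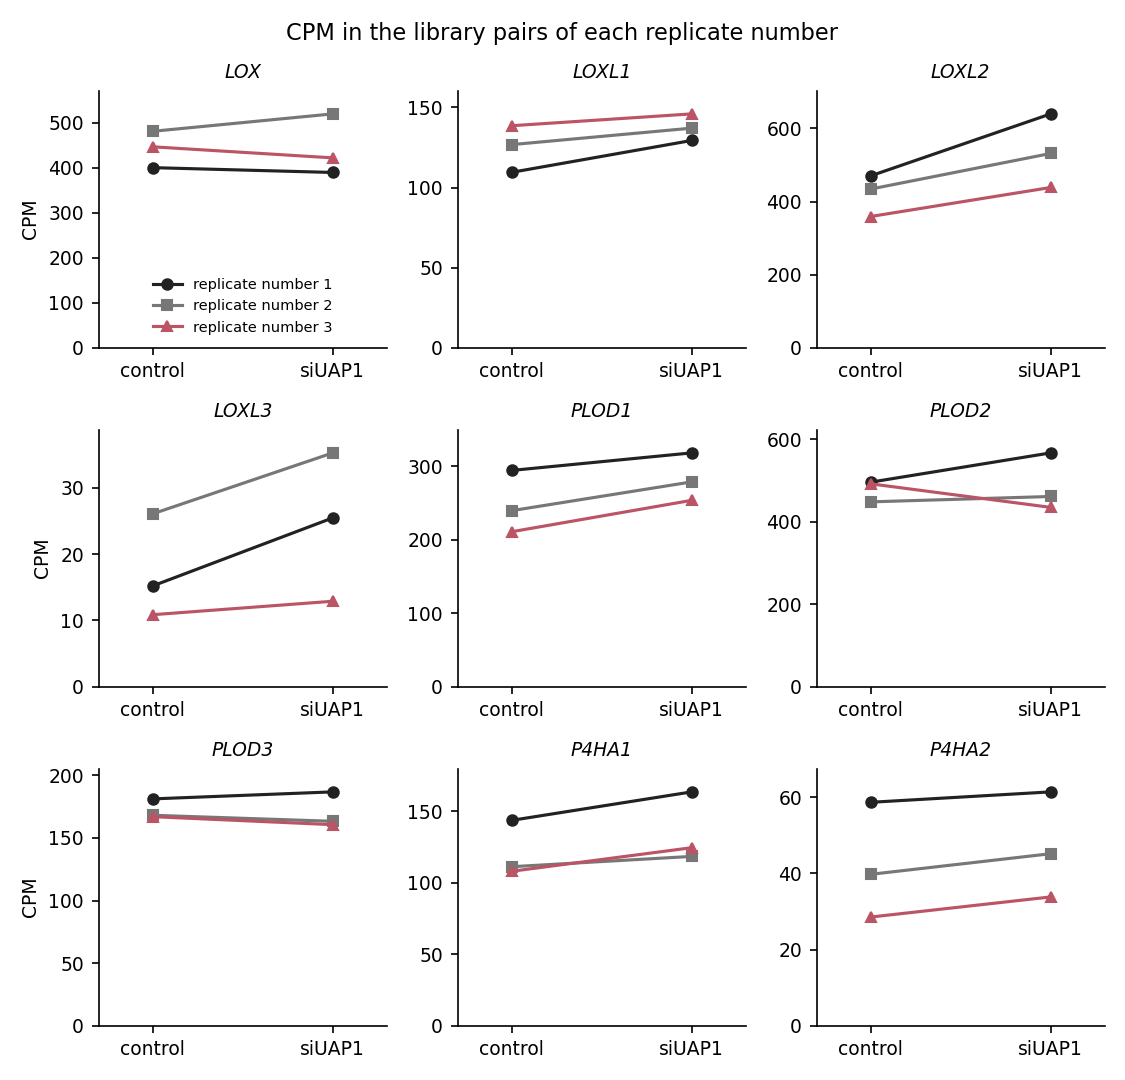
CPM (linear axes from 0) of the 9 tested genes in control and siUAP1 libraries, each line joining the libraries of 1 replicate number. All 3 lines go up for LOXL1, LOXL2, LOXL3, PLOD1, P4HA1 and P4HA2, while those of LOX, PLOD2 and PLOD3 go both ways.

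Among the lysyl hydroxylases, PLOD1 rose and the others were not called. PLOD1 (ENSG00000083444, chromosome 1, 11934205 to 11975538, plus strand) was at 294.5, 239.7 and 211.0 CPM in the control group and 318.4, 278.9 and 253.8 CPM in the siUAP1 group. The order of the replicate numbers was the same in both groups, with siUAP1 above its control in each. The log2 fold change was 0.20 (SE 0.0471, 95% interval 0.10 to 0.30, edgeR adjusted p = 0.00406), and the call ended without pair 3 (adjusted p = 0.164). PLOD2 (ENSG00000152952, chromosome 3, 146069440 to 146163653, minus strand) was at 495.6, 447.9 and 491.6 CPM in the control group and 566.6, 460.9 and 434.5 CPM in the siUAP1 group. It was higher in pairs 1 and 2 and lower in pair 3, and its log2 fold change was 0.02 (SE 0.0548, 95% interval -0.09 to 0.13, adjusted p = 0.871). PLOD3 (ENSG00000106397, chromosome 7, 101205977 to 101218420, minus strand) was the steadiest, at 181.2, 168.1 and 167.0 CPM in the control group and 186.8, 163.3 and 160.6 CPM in the siUAP1 group, at a log2 fold change of -0.02 (SE 0.047, 95% interval -0.12 to 0.08, adjusted p = 0.853). PLOD3 shares 7.56% of its exonic bases with ZNHIT1 on the opposite strand (51.4 CPM in both groups), so its counts are uncertain.

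Both prolyl 4-hydroxylase alpha subunits were higher in all 3 pairs, and P4HA1 was called. P4HA1 (ENSG00000122884, chromosome 10, 73007217 to 73096974, minus strand) was at 143.5, 111.1 and 107.9 CPM in the control group and 163.4, 118.3 and 124.4 CPM in the siUAP1 group. Replicate number 1 was the highest in each group, and the groups overlapped. The log2 fold change was 0.16 (SE 0.0484, 95% interval 0.06 to 0.26, edgeR adjusted p = 0.0223). This call ended with DESeq2 and the block (adjusted p = 0.101), without pair 1 (0.0561) and without pair 3 (0.231). P4HA2 (ENSG00000072682, chromosome 5, 132191838 to 132295315, minus strand) had the same estimate on fewer counts. Its values were 58.7, 39.8 and 28.6 CPM in the control group and 61.5, 45.2 and 33.8 CPM in the siUAP1 group, and the estimate on the log2 scale was 0.16 (SE 0.0629, 95% interval 0.03 to 0.29, adjusted p = 0.0864). It shares 6.45% of its exonic bases with P4HA2-AS1, which was at 0.021 CPM. The common beta subunit gene P4HB, which encodes protein disulfide isomerase, was not called (-0.05, SE 0.0462, adjusted p = 0.518).

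The promoters of 4 members show how the DNA at the starts of these genes differs, with PLOD1 and P4HA1 among those that rose and LOX and PLOD2 among those not called. Each sequence is from RefSeq (GRCh38.p14), runs 5′ to 3′ on the strand of the gene from 250 bases before to 50 after an annotated start, and has in capitals the core of the HIF response element, ACGTG or GCGTG, on either strand (CACGT or CACGC on the printed strand).
LOX, chr5:122078210-122078509, minus strand: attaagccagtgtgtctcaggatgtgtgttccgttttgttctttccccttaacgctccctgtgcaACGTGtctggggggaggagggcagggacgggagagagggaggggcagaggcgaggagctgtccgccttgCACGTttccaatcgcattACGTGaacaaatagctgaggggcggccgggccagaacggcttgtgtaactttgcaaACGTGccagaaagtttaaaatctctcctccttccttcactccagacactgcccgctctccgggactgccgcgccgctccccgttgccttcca
PLOD2, chr3:146161135-146161434, minus strand: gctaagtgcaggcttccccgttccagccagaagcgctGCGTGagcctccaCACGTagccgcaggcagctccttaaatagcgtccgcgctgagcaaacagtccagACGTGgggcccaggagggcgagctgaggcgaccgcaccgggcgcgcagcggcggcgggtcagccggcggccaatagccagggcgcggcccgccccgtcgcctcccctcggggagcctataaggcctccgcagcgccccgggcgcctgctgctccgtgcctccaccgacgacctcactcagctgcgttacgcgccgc
PLOD1, chr1:11934467-11934766, plus strand: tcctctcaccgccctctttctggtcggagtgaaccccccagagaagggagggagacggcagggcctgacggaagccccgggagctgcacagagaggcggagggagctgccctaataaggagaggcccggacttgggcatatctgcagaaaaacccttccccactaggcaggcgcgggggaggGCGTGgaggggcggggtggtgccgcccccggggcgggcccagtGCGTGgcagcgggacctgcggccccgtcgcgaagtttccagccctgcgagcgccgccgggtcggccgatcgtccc
P4HA1, chr10:73096817-73097116, minus strand: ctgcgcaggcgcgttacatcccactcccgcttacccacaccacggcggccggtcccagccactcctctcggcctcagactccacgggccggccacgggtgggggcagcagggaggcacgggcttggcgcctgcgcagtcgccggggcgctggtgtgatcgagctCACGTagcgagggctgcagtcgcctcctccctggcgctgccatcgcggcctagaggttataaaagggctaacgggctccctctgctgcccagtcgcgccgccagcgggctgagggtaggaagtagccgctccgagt
The start used was the RefSeq start nearest the deposited gene edge, from which it lay 101 bases away for LOX, 108 for P4HA1, 512 for PLOD1 and 2469 for PLOD2. The distance was 56 bases for LOXL4, 473 for LOXL1, 839 for PLOD3, 1748 for LOXL3 and 68224 for P4HA2, so the P4HA2 window is not at the edge of the counted gene. The LOX window holds 4 such cores, that of PLOD2 3, that of PLOD1 2 and that of P4HA1 1. An overlapping pair (CACGTG) would be counted in both orientations. In the windows of LOXL1, LOXL3, LOXL4, PLOD3 and P4HA2 these letters were not found, and LOXL2 had no window. Of 35116 promoters of 300 bases, 48.4% held at least 1 core, 23.1% at least 2 and 10.1% at least 3. Guanine and cytosine made up 58.0% of the LOX window, 71.0% of PLOD1, 72.0% of PLOD2 and 70.3% of P4HA1, where the median promoter had 58.7%. A relation of these cores to the changes between the groups was not tested.

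Differences between members of a family were tested as ratios of FPKM within a library, which need no scaling between libraries. Among 10 such ratios, 6 moved the same way in all 3 pairs and the groups overlapped in all 10. The log2 ratio of LOXL2 to LOX was 0.193, -0.188 and -0.355 in control and 0.677, -0.00708 and 0.0159 in siUAP1 libraries, and was higher by 0.484, 0.181 and 0.37 in pairs 1 to 3. The exact permutation test of 3 against 3 libraries (two-sided), which cannot go below p = 0.1, gave p = 0.3, and 0.75 adjusted over the 10 ratios. The ratio of PLOD3 to PLOD1 was lower in all 3 pairs, by a mean of -0.217 on the log2 scale (exact permutation p = 0.2, adjusted 0.75). For P4HA2 to P4HA1 the mean log2 difference was 0.00358 (exact permutation p = 1.0). The ratio of LOXL2 to LOXL1 was the most even between pairs among those of one sign, higher by 0.204, 0.18 and 0.213 (exact permutation p = 0.5). With sign flips over the 3 pairs, a test added after seeing the data that cannot go below p = 0.25, each of the 6 ratios of one sign had an exact p of 0.25 (0.417 adjusted over the 10). No ratio was shown to differ between the groups, and neither test could have shown it with 3 libraries a group.

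The replicate numbers were a larger source of variation than the siRNA for several members. In a test added after seeing the data, all 9 genes differed between replicate numbers (edgeR with the block, adjusted p under 0.05), as did 45.9% of all genes. P4HA2 was lower in number 3 than in number 1 by -0.95 on the log2 scale, LOXL3 by -0.76, LOXL2 by -0.47 and PLOD1 by -0.40. LOXL1 went the other way (0.26), and LOX was highest in number 2 (0.34 above number 1). PLOD3 varied least, with differences of -0.15 and -0.17 from number 1. The labels do not say what the numbers stand for, but the names of the control and siUAP1 libraries with the same number share a code, whose meaning is not given.

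Other enzymes and chaperones that act on collagen in the endoplasmic reticulum gave more rises than falls, and the galactosyltransferase gene COLGALT1 fell. Of 15 listed, all were tested, 7 rose, 1 fell and 7 were not called, with a median log2 fold change of 0.15. Over all genes tested, 9.07% rose and 7.14% fell, and on the group alone 7.13% had an unadjusted p under 0.05 in edgeR. On the group alone edgeR called 0 (4 at an unadjusted p under 0.05) and limma-voom 0, whereas DESeq2, and edgeR with no filter beyond 1 count, each called 1 higher and 1 lower. Of all genes, that DESeq2 fit called 95 higher and 70 lower, and that edgeR fit 182 and 91. With the block, the 7 rises became 4 without pair 3 and 2 with limma on log2(FPKM + 1). In these settings 742 of 16106 and 553 of 12070 genes rose, where 1430 of 15768 did in the full fit. COLGALT1, whose product attaches galactose to collagen hydroxylysine, was at 28.7, 28.0 and 24.8 FPKM in control and 19.3, 18.4 and 16.1 FPKM in siUAP1 libraries, without overlap of the groups (log2 fold change -0.60, SE 0.0487, edgeR adjusted p = 1.9e-09). Its paralogue COLGALT2 rose from a far lower level, from 0.748, 0.934 and 1.08 FPKM to 1.4, 1.69 and 1.71 FPKM (0.80, SE 0.118, adjusted p = 2.13e-05). The prolyl 3-hydroxylase gene P3H2 (0.42, SE 0.0528) and the collagen chaperone gene SERPINH1, which encodes HSP47 (0.25, SE 0.0503), also rose. The remaining rises were those of P3H1, P3H4, FKBP9 and FKBP10, at 0.15 to 0.31.

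For comparison with the lists of this paragraph, 9.07% of all genes tested rose and 7.14% fell. With the block, 742 of 16106 genes rose without pair 3 and 553 of 12070 with limma on log2(FPKM + 1). DESeq2 with the block called 738 of 31032 higher, of which 18049 had no adjusted p. Genes of procollagen transport and propeptide cleavage gave 2 rises and 0 falls among 9 tested of 12 listed, with a median of 0.13. They were BMP1, the procollagen C-proteinase, which also activates LOX (0.37, SE 0.0885, edgeR adjusted p = 0.00423), and its enhancer PCOLCE (0.20, SE 0.0517, adjusted p = 0.00705). With the block, DESeq2 called 1 of this list and limma on log2(FPKM + 1) 0, and edgeR without pair 3 called 1. In the list of copper supply, lysyl oxidase partners and other crosslinking, 4 of 7 tested rose and 0 fell (9 listed, median 0.19), with 2 rises without pair 3 and 1 with limma on log2(FPKM + 1). ATP7A, the copper pump that loads lysyl oxidases in the secretory pathway, rose from 1.12, 0.981 and 0.814 FPKM to 1.77, 1.95 and 1.07 FPKM (0.70, SE 0.111, adjusted p = 5.37e-05). ATP7A shares 97 exonic bases with the abundant glycolytic gene PGK1 (852 CPM) on the same strand, so its counts are uncertain. Tissue transglutaminase (TGM2, 0.25, SE 0.0471), fibronectin (FN1, 0.19, SE 0.0506) and the copper importer gene SLC31A1 (0.16, SE 0.0551) rose as well. Elastin (ELN) had 32 counts in all libraries together, and FBLN5 had 0.

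The collagen chains on which these enzymes act had a higher median fold change than the enzymes (0.65 against 0.16 on the log2 scale, and also 0.65 without COL1A2), a difference that was not tested. This median includes COL11A1, COL11A2 and COL4A4, which had few counts (111, 78 and 122 in all libraries together) and high estimates (0.86, 0.79 and 1.87). The more abundant COL5A1, COL27A1, COL4A5 and COL4A6 were at 0.33, 0.07, 0.17 and -0.04. Leaving out COL1A2, 6 of 11 tested fibril-forming and basement membrane chains rose and 0 fell, of 17 listed. Among all genes tested, 9.07% rose and 7.14% fell. On the group alone edgeR called 0 (4 at an unadjusted p under 0.05) and limma-voom 0, whereas with COL1A2 included DESeq2 called 2 higher and edgeR with no filter beyond 1 count 3. Of all genes, that DESeq2 fit called 95 higher and that edgeR fit without the filter 182. COL1A1 was at 86.1, 145.8 and 78.3 FPKM in control and 175.3, 237.9 and 137.3 FPKM in siUAP1 libraries (0.85, SE 0.0546, edgeR adjusted p = 4.98e-11). COL1A2, its usual partner chain, had 6, 2 and 5 counts in control and 21, 14 and 16 counts in siUAP1 libraries, and passed the filter on low counts through the siUAP1 group alone, so its call is not used. The collagen IV chains COL4A1 (0.66, SE 0.0517) and COL4A2 (0.65, SE 0.0479) and the fibrillar chain COL5A2 (0.42, SE 0.0521) also rose. The remaining rises were those of COL5A1 (0.33, SE 0.0512) and of COL4A4 (1.87, SE 0.462), the latter on few counts. Summed over the 17 chains, FPKM were 0.852, 1.13 and 0.733 times the lysyl oxidase sum in control and 1.23, 1.49 and 1.07 times in siUAP1 libraries. Within pairs this quotient was 1.44, 1.32 and 1.46 times higher. The quotient over the lysyl hydroxylases was 1.56, 1.42 and 1.56 times higher, and that over the prolyl hydroxylase subunits 1.52, 1.4 and 1.34 times. Most of the chain sum was COL1A1. Its mean was 103.4 of 173.4 FPKM in control and 183.5 of 274 FPKM in siUAP1 libraries, so the quotients mainly follow this gene. These quotients are descriptions and were not tested.

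Of 12 tested genes that supply cofactors or sense oxygen (13 listed), 5 rose and 1 fell, with a median of 0.07. Among all genes tested, 9.07% rose and 7.14% fell, so that 1 fall is near the share of all genes. The transferrin receptor gene TFRC, for iron uptake, rose (0.61, SE 0.0599, edgeR adjusted p = 4.36e-08), as did HIF1A (0.23, SE 0.0489) and IDH1, whose product makes 2-oxoglutarate (0.21, SE 0.0472), with EGLN1 and EPAS1 at 0.20 and 0.25. Both without pair 3 and with limma on log2(FPKM + 1), 2 of the list rose and 0 fell. Of all genes, 742 of 16106 rose and 453 fell without pair 3. With limma on log2(FPKM + 1), 553 of 12070 rose and 391 fell. ARNT, the partner subunit of HIF, fell (-0.32, SE 0.0781, adjusted p = 0.00566). Of 12 other hypoxia-inducible genes, 3 rose and 0 fell, where 9.07% and 7.14% of all genes did, with a median of 0.12. The rises were NDRG1 (0.23, SE 0.0627), SLC2A1, the glucose transporter GLUT1 (0.16, SE 0.0496), and ANGPTL4 (0.96, SE 0.308), the last on 235 counts in all. With the block, 0 of this list were called by DESeq2, by limma on log2(FPKM + 1) (not every gene of the list passed its filter) and by edgeR without pair 3, and 1 without pair 2. Of all genes, DESeq2 with the block called 738 of 31032 higher (18049 had no adjusted p), and edgeR without pair 2 1110 of 15779. CA9 and VEGFA were not called (-0.16, SE 0.309, and 0.16, SE 0.0606). On the group alone, edgeR and limma-voom called 0 genes of the transport, copper, cofactor and hypoxia lists, with 0, 1, 2 and 0 at an unadjusted p under 0.05 in edgeR. DESeq2 called 1 cofactor gene higher, and edgeR with no filter beyond 1 count called 1 copper and 1 cofactor gene higher. Of all genes, that DESeq2 fit called 95 higher and that edgeR fit 182.

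**Figure D5:**
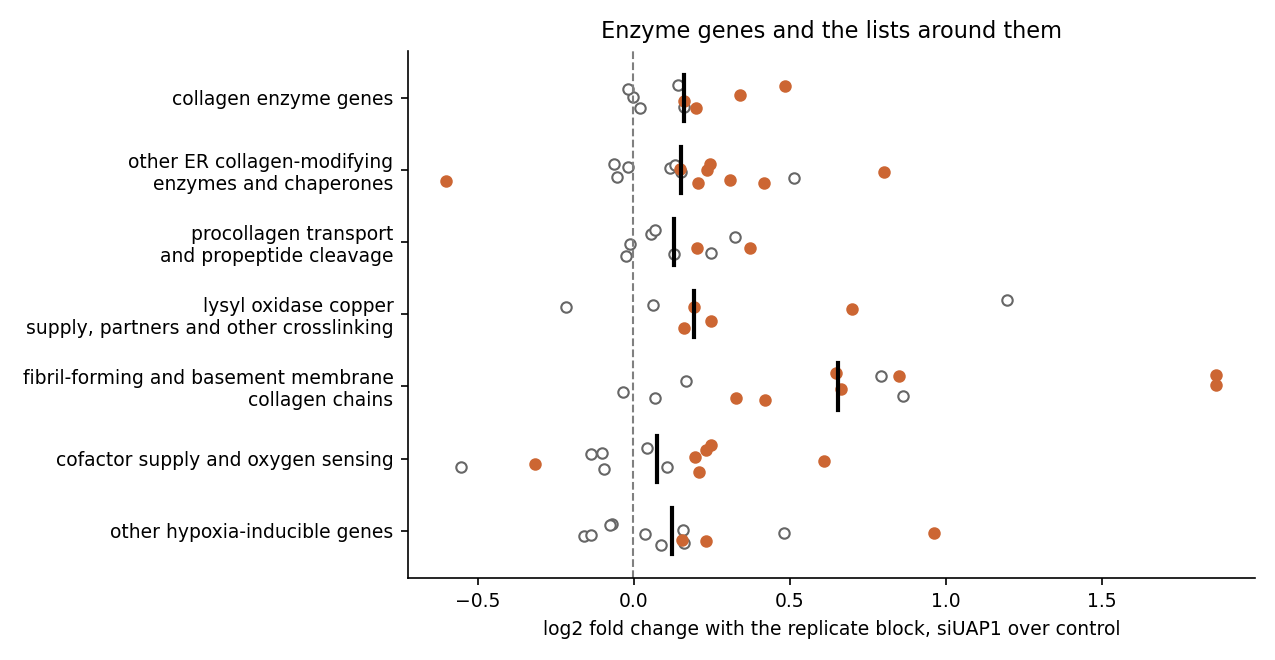
log2 fold changes with the replicate block of the tested enzyme genes (top row) and of the tested genes of 6 lists around them, 1 point per gene, filled where adjusted p is under 0.05, with a black bar at each median and a dashed line at the median of all genes. The collagen chains have the highest median (0.65, with chains of few counts included), and COLGALT1 is the filled point farthest to the left.

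Genes whose pattern over the 6 libraries was most like the leading member of each family were found among 10341 protein-coding genes by the root-mean-square difference of centred log2 CPM. For LOXL2, the adhesion adaptor gene TNS3 was among the 3 closest (0.0388). PLOD2 was followed by the RNA helicase gene SKIV2L (0.0193), VPS8 (0.0324) and CCDC9B (0.0404), and P4HA1 by PDXDC1 (0.0378), TIGD5 (0.0379) and the interferon-induced IFIT1 (0.0409). These matches are a description over 6 libraries and were not tested.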

How the data were processed

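The authors deposited raw counts per gene and FPKM for 6 libraries, per the file headers. The library sizes implied by FPKM were 0.9876 to 1.029 of the count totals. The genome build GRCh38.p12 and DESeq2 are named in the submitters' processing notes; which aligner and counter were run, and whether strand was used, is not given in the sources used here. All 10 genes matched GENCODE release 29 in extent. No libraries of a group were duplicates (chi-square over its degrees of freedom 23.9 to 41.3).

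Counts were tested with edgeR 4.0.16 in R 4.3.3 (TMM, filterByExpr with a minimum count of 10, quasi-likelihood, Benjamini-Hochberg adjustment over 15768 genes, threshold 0.05), on the group alone and with the replicate number as a block. The numbers were taken to pair the libraries because deviations of same-numbered libraries from their group means correlated at 0.552, 0.454 and 0.584, each over 0.1, and those of different numbers at -0.434 to -0.0893; the library names also share a code within a number. The SE is the fold change over the root of F. The script was tested on simulated data. Members and gene lists were chosen with earlier results of these data known. Named are all members and up to 4 called genes per list and fit, or the 2 of smallest p, the 3 genes most like the leading member of a family, and overlapping genes; those named beyond this (CA9, VEGFA, P4HB, ELN, FBLN5, COL1A2, CDH5 and the remaining called genes) were chosen after their values were seen. A few genes that the rule or the marker lists hold are not reported here. Alternatives were RLE scaling, no TMM, other filters, protein-coding genes alone, leaving out libraries or pairs, DESeq2 1.42.0, limma-voom (limma 3.58.1) and limma fitted to log2(FPKM + 1) or with 0.1 in place of 1, whose fold changes are on that log scale.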

Additional observations from a re-analysis of the deposited data

How the results depend on the processing

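With the replicate block, 4 enzyme genes were called higher (edgeR), and also 4 with RLE scaling, 5 with library totals without TMM, 5 with limma-voom, 3 with DESeq2 and 1 with limma on log2(FPKM + 1). In the same order, these settings called 1430, 1401, 1432, 1421, 738 and 553 of all genes higher. The genes fitted numbered 15768 with edgeR and limma-voom, and 12070 with limma on log2(FPKM + 1). With DESeq2 they numbered 31032, of which 18049 had no adjusted p. Leaving out 1 pair in the blocked fit left 2 to 4 enzyme genes, with 3 without pair 1, 4 without pair 2 and 2 without pair 3 (LOXL2 and LOXL3). Of all genes, 1238 of 15865 rose without pair 1, 1110 of 15779 without pair 2 and 742 of 16106 without pair 3. No enzyme gene was called lower in any setting, and none higher in any setting without the block. Of all genes, 1 to 1155 were called lower depending on the setting, and 0 to 182 higher without the block. LOXL2 was called in every blocked setting, with adjusted p up to 0.0188. LOXL3, PLOD1 and P4HA1 were not called with limma on log2(FPKM + 1) and the block (0.0586, 0.0619 and 0.0754). Without TMM the blocked fit gave LOXL1 an adjusted p of 0.04935. In edgeR with TMM the block changed the call of LOXL2, LOXL3, PLOD1 and P4HA1, and with limma-voom or without TMM also that of LOXL1. Fold changes near 0 changed sign. That of LOX was 0.00367 on the group alone, and -0.00267 with the replicate block, -0.000554 with DESeq2, -0.00301 with limma-voom, -0.00527 with limma on log2(FPKM + 1), with or without the filter and with the block, -0.00541 on log2(FPKM + 0.1), -0.00729 with DESeq2 and the block, -0.00507 with RLE and the block, -0.00345 without TMM and with the block, and -0.00212 with limma-voom and the block. Leaving out 1 library gave -0.127 to 0.0908 for LOX, -0.0944 to 0.105 for PLOD2, -0.0868 to 0.0258 for PLOD3 and -0.0974 to 0.453 for P4HA2 on the group alone. For the 4 genes called with the block, the same ranges were 0.205 to 0.477 for LOXL2, 0.138 to 0.913 for LOXL3, 0.0849 to 0.331 for PLOD1 and 0.0073 to 0.305 for P4HA1. Leaving out 1 pair gave -0.0617 to 0.0359 for LOX and -0.068 to 0.116 for PLOD2. The number of family ratios whose groups did not overlap, 0 of 10, became 0 to 3 when 1 library was left out, with 3 without control replicate 1, 1 without siUAP1 replicate 2 and 2 without siUAP1 replicate 3. Leaving out a library gives fewer values to overlap. LOXL4 was too shallow for any statement.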
